A study of Mus musculus with 2 samples.

Results

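Ccl2, Ccl7, Ccl11 and Ccl12 are 4 neighbouring genes of mouse chromosome 11 that encode CC chemokines, small secreted proteins that draw leukocytes into tissue. They were taken as the rows with these 4 symbols among the 32287 features counted in both libraries, and all 4 were found. Ccl2 (MCP-1), Ccl7 (MCP-3) and Ccl12 (MCP-5, a gene of the mouse) encode ligands of the receptor CCR2, which brings inflammatory monocytes out of the bone marrow and into injured tissue such as the infarcted heart. Ccl11 encodes eotaxin, a ligand of CCR3 that attracts eosinophils. In sites of injury Ccl2 and Ccl7 are made by macrophages and by stromal cells, often after NF-kappaB is activated, and the 4 genes arose from a common ancestor by local duplication.

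The cells came from hearts of p16-2A-CreER;R26-mTmG mice after myocardial infarction (MI). The CreER gene is joined to the p16 locus by a 2A peptide, so that tamoxifen lets cells which then express p16 switch a reporter from a red to a green membrane protein (GFP). Tamoxifen was given by gavage on day 5 after MI and the infarct region was taken on day 7, depleted of cardiomyocytes and red cells and sorted into GFPhi and GFPlo cells, which another label field calls GFP+ and GFP-. Both groups therefore share the alleles, the infarct and the tamoxifen, and they differ in the sorted GFP level. How many mice were used, their sex and age, and whether animals were pooled is not stated in the labels.

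Each group is 1 droplet library, so no comparison has a replicate spread and no test was made. A level is given as CPM, the molecules (UMIs) of a gene per 1000000 UMIs of the same cells, and intervals are 95% intervals of counting error only. A gene was called between groups of cells when its CPM differed at least 2-fold and the interval of the ratio excluded 1, among genes that reached 10 CPM in one of the groups. After filtering, 10125 GFPhi cells with 90995550 UMIs (median 6899 per cell) and 11959 GFPlo cells with 104571137 UMIs (median 7712) were kept. Marker UMIs placed 8144 GFPhi cells in the macrophage class, 335 in the fibroblast, 438 in the mesothelial and 252 in the endothelial class, against 71, 6839, 1175 and 834 GFPlo cells. Each of these classes carried its own markers, all of them in at least 10% of its cells. The gate picks cells by these markers, so this describes the classes and gives them no separate support. Markers of other classes also reached 10% of cells. These were 6 of 8 macrophage markers in GFPhi fibroblasts and in GFPhi mesothelial cells, against 1 of 8 in those of GFPlo. In GFPlo mesothelial cells they were 7 of 7 fibroblast markers. Cells of the cardiomyocyte class numbered 1 and 6, and 94 barcodes occurred in both libraries. Of the kept cells, 849 GFPhi and 2295 GFPlo cells entered no class.

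In the mm10 annotation the genes lie on the plus strand in the order Ccl2 (chr11:82035571-82037453), Ccl7 (chr11:82045712-82047525), Ccl11 (chr11:82057823-82062955) and Ccl12 (chr11:82101845-82103400), each with 3 exons. They span 67.8 kb. The gaps between them are 8.26, 10.3 and 38.9 kb, and Ccl8, a further CC chemokine gene, starts 11.8 kb after Ccl12. No other annotated gene lies between Ccl2 and Ccl8. Each pair of coding sequences was cut to the shorter length, and identity was taken over the aligned bases. It ran from 68.1% (Ccl2 and Ccl12, 312 bases compared) to 72.9% (Ccl11 and Ccl12, 291 bases compared). Ccl2 has 444 coding bases, so its end was not compared. The transcripts of the 4 genes share 0 stretches of 31 bases, which bears on whether a read of one could be counted for another. The family is named after a pair of adjacent cysteines near the start of the mature protein, and the coding sequence around that pair is shown to let the members be compared, with the 2 cysteine codons in capitals (codons 34, 33, 32 and 33 from the start codon).
Ccl2: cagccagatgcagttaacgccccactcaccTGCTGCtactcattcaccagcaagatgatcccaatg
Ccl7: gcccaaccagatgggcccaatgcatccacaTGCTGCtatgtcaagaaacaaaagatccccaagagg
Ccl11: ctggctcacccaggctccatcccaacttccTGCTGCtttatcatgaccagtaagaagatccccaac
Ccl12: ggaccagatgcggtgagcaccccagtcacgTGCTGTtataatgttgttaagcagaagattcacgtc
In these 66-base windows Ccl2 matched Ccl11 and Ccl12 at 38 positions each and Ccl7 at 27, compared base by base without gaps. Ccl7 and Ccl12 matched at 26. The capitals read TGCTGT in Ccl12 and TGCTGC in the other 3.

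Over whole libraries, Ccl2, Ccl7 and Ccl12 were higher in GFPhi and Ccl11 was lower. Ccl2 stood at 527 CPM in GFPhi and 224 CPM in GFPlo (2.35-fold, 2.32 to 2.39), and Ccl7 at 350.3 and 123 CPM (2.84-fold, 2.78 to 2.90). Ccl12 had 23392 UMIs in GFPhi and 49 in GFPlo (257 and 0.469 CPM). Ccl11 had 40 and 332 UMIs (0.440 and 3.17 CPM), 7.22-fold lower in GFPhi (5.19 to 10.3), and stayed below the 10 CPM needed for a call. All 3 members tested were called higher, where 10.9% of the 9213 genes tested were called higher and 18.1% lower, with a median ratio of 0.832. The libraries hold different cells, so these ratios compare mixtures.

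The 4 genes divided over the cell classes in different ways. Macrophages held 84.1% of the Ccl2, 88.1% of the Ccl7 and 98.3% of the Ccl12 UMIs of GFPhi. In GFPlo, fibroblasts held 44.6% of Ccl2, 52.8% of Ccl7 and 93.1% of Ccl11, and mesothelial cells 27.9% of Ccl2 and 27.3% of Ccl7. These shares also follow the size of the classes. Macrophages were 80.4% of GFPhi cells, with 6.44e+07 of its 9.10e+07 UMIs. Fibroblasts were 57.2% and mesothelial cells 9.83% of GFPlo cells, with 6.67e+07 and 1.76e+07 of its 1.05e+08 UMIs. The 71 GFPlo macrophages held 0.892% of the Ccl2 of GFPlo. Ccl2 and Ccl7 were thus present in macrophages and stroma, Ccl12 in macrophages, and Ccl11 in fibroblasts and mural cells.

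**Figure D1:**
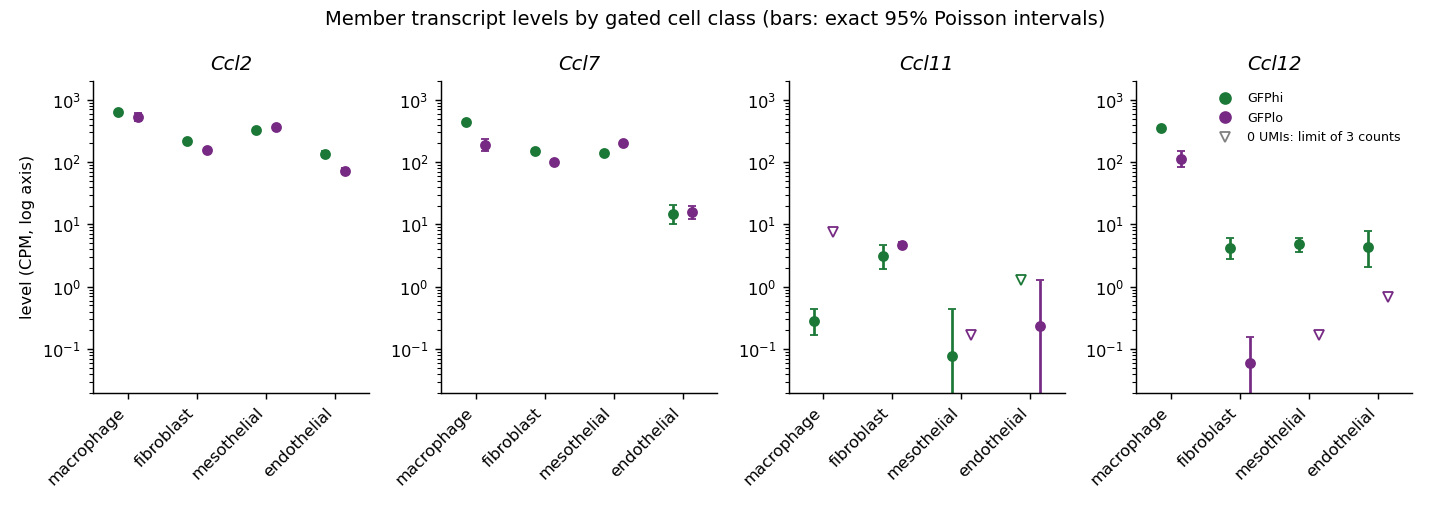
Level (CPM, log axis) of each of the 4 genes in the cell classes of the GFPhi and GFPlo libraries, with 95% intervals of counting error. Among macrophages, mesothelial cells, fibroblasts and endothelial cells, Ccl2 is highest in macrophages in both libraries (626 and 530 CPM) and next highest in mesothelial cells, while Ccl12 is at 4.13 to 4.78 CPM in the fibroblasts, mesothelial and endothelial cells of GFPhi.

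By class, the order of Ccl2 was the same in both libraries over the 4 main classes. In GFPhi it was 626 CPM in macrophages (620 to 632), 326 in mesothelial cells (316 to 336), 218 in fibroblasts (207 to 230) and 136 in endothelial cells (121 to 152), and no neighbouring intervals overlapped. In GFPlo it was 530 CPM in macrophages (460 to 607), 370.3 in mesothelial cells (361 to 379), 156 in fibroblasts (153 to 160) and 71.2 in endothelial cells (63.5 to 79.7). The 95 GFPlo mural cells, the pericytes and smooth muscle of vessels, stood at 223 CPM (185 to 266), and the 516 T and NK cells at 57.2 CPM (48.1 to 67.5), of which 1 cell held 88 of the 140 UMIs. In GFPhi, macrophages exceeded fibroblasts 2.87-fold (2.72 to 3.03) and endothelial cells 4.61-fold, both called, and mesothelial cells 1.92-fold (1.86 to 1.99), not called. The share of genes called higher in macrophages was 16.5% against fibroblasts, 16.4% against mesothelial cells and 12.5% against endothelial cells.

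Ccl7 had its lowest levels of the 4 main classes in endothelial cells. In GFPhi it was 436 CPM in macrophages (431 to 441), 152 in fibroblasts (143 to 161), 138 in mesothelial cells (132 to 145) and 14.7 in endothelial cells (10.2 to 20.6), and the intervals of fibroblasts and mesothelial cells overlapped. In GFPlo it was 199 CPM in mesothelial cells (193 to 206), 190.2 in macrophages (150 to 238), 102 in fibroblasts (99.8 to 105), 29.0 in mural cells and 15.8 in endothelial cells, and mesothelial cells and macrophages overlapped. In GFPlo, mesothelial cells exceeded endothelial cells 5.20-fold in Ccl2 (4.63 to 5.85) and 12.6-fold in Ccl7 (9.93 to 16.3), where 11.9% of genes were called higher. Fibroblasts were 2.37-fold lower than mesothelial cells in Ccl2 (2.29 to 2.44), which was called, and 1.95-fold lower in Ccl7 (1.87 to 2.03), which was not, where 11.4% of genes were called lower.

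Within a class the GFPhi and GFPlo cells lay closer together than the whole libraries. Among macrophages 2 of 3 members tested were called higher in GFPhi, Ccl7 (436 and 190.2 CPM, 2.29-fold, 1.83 to 2.92) and Ccl12 (357 and 114 CPM, 3.13-fold, 2.34 to 4.30), where 2.54% of genes were called higher. Ccl2 differed 1.18-fold there (1.03 to 1.36). The GFPlo values rest on 71 cells, with 209 UMIs of Ccl2, 75 of Ccl7 and 45 of Ccl12, the last in 9 cells. Of these 71 cells 30 were MHC class II-high and 3 resident-type, against 1239 and 865 of the 8144 GFPhi macrophages, so the classes hold different subsets in the libraries. As a mean over cells instead of summed UMIs, Ccl7 in macrophages differed 1.98-fold and was not called.

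In stroma neither Ccl2 nor Ccl7 was called between the libraries in the fibroblast, mesothelial or endothelial class, where 0.774%, 0.918% and 1.39% of genes were called higher in GFPhi and 0.459%, 1.32% and 2.76% lower. Ccl2 was 1.39-fold higher in GFPhi fibroblasts (1.32 to 1.47) and 1.91-fold higher in GFPhi endothelial cells (1.62 to 2.24), and its ratio in mesothelial cells was 0.879 (0.846 to 0.914). Ccl7 was 1.49-fold higher in GFPhi fibroblasts (1.39 to 1.59), with a ratio of 0.693 in mesothelial cells (0.654 to 0.734) and 0.933 in endothelial cells (0.599 to 1.43). The endothelial values depend on few cells and on the gate: Ccl2 became called at 2.24-fold with Dcn kept in the fibroblast gate list, at 2.63-fold with at least 10 marker UMIs, at 3.82-fold without the top 1% of cells and at 4.08-fold with at least 10 times the markers of any other class, and Ccl7 turned to 2.41-fold higher without the top 1% of cells. With Dcn kept, which left 45 and 71 mesothelial cells, their Ccl7 ratio turned to 2.37. Macrophage markers moved with the sort: the 8 markers summed to 206 CPM in GFPhi and 19.5 CPM in GFPlo fibroblasts, to 229 and 29.0 CPM in mesothelial cells and to 301 and 43.2 CPM in endothelial cells. When a class had to hold at least 10 times the marker UMIs of any other, the Ccl2 ratio of fibroblasts was 1.03 (0.959 to 1.11). In the 28 GFPhi fibroblasts without a UMI of the macrophage genes C1qa, C1qb and C1qc, Ccl2 was 647 CPM (571 to 731). It was 191 CPM (181 to 202) in the 307 with such a UMI. GFPhi mesothelial cells went the other way (138 CPM without and 329.9 CPM with one), as did endothelial cells, with overlapping intervals. The part of macrophage RNA in the stromal ratios was not tested.

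Fibroblasts are a mixture, and the comparison was repeated in 3 subsets gated on their marker genes, chosen after the class values were seen. In Pi16-type cells, which carry markers of adventitial progenitor fibroblasts, 3 of 3 members tested were called higher in GFPhi, where 2.24% of genes were called higher and 1.86% lower. Ccl2 was 423 and 172 CPM (2.46-fold, 2.06 to 2.91), Ccl7 258 and 128 CPM (2.02-fold, 1.61 to 2.50) and Ccl11 56.7 and 18.6 CPM (3.06-fold, 1.82 to 4.87). These GFPhi values come from 32 cells, and 1 of them held 137 of the 149 Ccl2 UMIs. For Ccl7, 1 cell held 39 of the 91 UMIs, and for Ccl11, 3 cells held all 20. In Cthrc1-type cells, with markers of matrix-producing scar fibroblasts, Ccl7 was called higher (157 and 76.2 CPM, 2.06-fold, 1.75 to 2.41) and Ccl2 was not (1.16-fold, 0.977 to 1.37), where 0.949% of genes were called higher and 1.76% lower. The GFPhi values there come from 56 cells. For Ccl7, 1 cell held 82 of the 185 UMIs, and for Ccl2, 1 cell held 81 of the 155. The ratios without these cells were not computed. In Comp-type cells neither was called, with ratios of 0.786 for Ccl2 (0.606 to 1.01) and 0.546 for Ccl7 (0.329 to 0.857), where 1.2% of genes were called higher and 2.08% lower. The difference between the subsets was not tested.

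Among the GFPhi macrophage subsets the resident-type cells had the highest level of Ccl7 and Ccl12, and for Ccl2 their interval overlapped that of cycling cells (1266 to 1323 against 1240 to 1292 CPM). These 865 cells were gated on Cd163, Folr2, Timd4, Lyve1, Cbr2 and F13a1, which mark long-lived macrophages of the heart. Ccl2 reached 1294 CPM, Ccl7 1430 CPM and Ccl12 1132 CPM, against 555, 330.3 and 275 CPM in the other macrophages. The ratios were 2.33 (2.27 to 2.39), 4.33 (4.22 to 4.44) and 4.12 (4.001 to 4.233), and 3 of 3 were called where 9.69% of genes were called higher. Ccl8, the neighbouring gene, was at 1965 CPM in these cells and 180.0 CPM in the others.

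Shares of cells with a UMI were also high in resident-type cells. When each cell was thinned to 1000 UMIs, 47.0% of resident-type cells had a Ccl2 UMI, 39.4% a Ccl7 UMI and 36.8% a Ccl12 UMI. Without thinning the shares were 74.2%, 60.1% and 66.0%, and cycling macrophages had more for Ccl2 (81.5%). Over all GFPhi macrophages the thinned shares were 26.4%, 15.2% and 16.1%. In the 81 GFPhi T and NK cells, which serve as a class with little Ccl2 of its own, the thinned shares were 6.49%, 2.60% and 1.30% (median depth 1865 UMIs, against 6878.5 in macrophages).

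**Figure D2:**
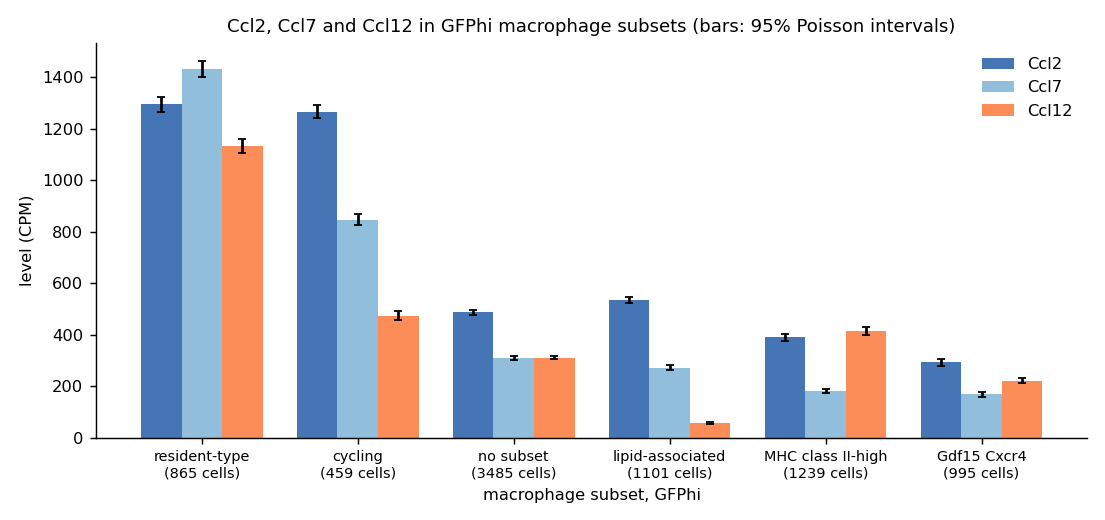
Level (CPM) of Ccl2, Ccl7 and Ccl12 in the macrophage subsets of the GFPhi library, with 95% intervals of counting error. Resident-type cells are highest for Ccl7 and Ccl12 (1430 and 1132 CPM) and lie beside cycling cells for Ccl2 (1294 and 1266 CPM), and lipid-associated-type cells reach 55.4 CPM of Ccl12.

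The levels were higher in cells with more resident marker UMIs, except in the last bin. Over 6 bins of the resident list, from 0 to at least 40 UMIs per 10000, Ccl2 was 387, 498, 723, 1166, 1405 and 1127 CPM. Ccl7 was 168, 309, 596, 1205, 1546 and 1269 CPM over the same bins, and Ccl12 236, 219, 446, 903, 1222 and 1038 CPM. Each gene was highest in the bin from 20 to 40 UMIs per 10000 and lower in the last, and Ccl12 alone was not higher in the second bin than in the first. The bins held 4086, 2106, 447, 318, 288 and 440 cells without a cycling signature, and the median depth per cell ran from 5955.5 to 8435 UMIs without following the order of the bins. The bins were chosen after the subset levels were seen.

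**Figure D3:**
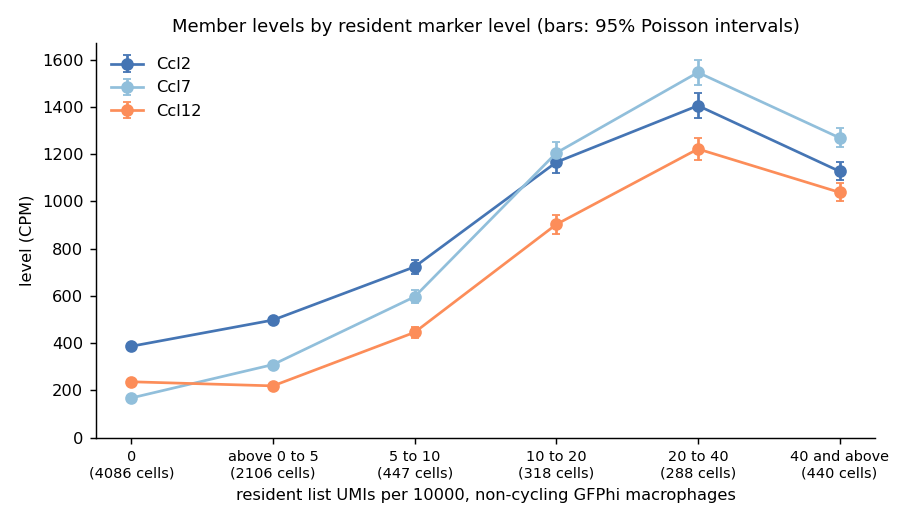
Level (CPM) of Ccl2, Ccl7 and Ccl12 in GFPhi macrophages binned by UMIs of the resident marker list per 10000 UMIs of the cell, with 95% intervals of counting error. All 3 genes peak in the bin from 20 to 40, at 1405, 1546 and 1222 CPM.

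Cycling macrophages, 459 cells with at least 4 of 8 cell cycle markers, were the other subset with high Ccl2 and Ccl7. They held 1266 CPM of Ccl2 (2.31-fold over the others, 2.26 to 2.36), 845 CPM of Ccl7 (2.19-fold, 2.13 to 2.25) and 474 CPM of Ccl12 (1.38-fold, 1.33 to 1.43). Of the 3 genes 2 were called, where 9.07% of genes were called higher. The cell with most Ccl2, 359 UMIs, was among them. When cycling cells were set against other cells of the same subset list, the Ccl2 ratio was 1.29 for resident-type, 1.71 for lipid-associated-type, 2.42 for MHC class II-high and 2.82 for cells of no subset. Ccl12 went both ways. Its ratio was 2.34 for lipid-associated-type and 1.74 for cells of no subset, but 0.831 for resident-type and 0.368 for MHC class II-high (30 cycling cells). Cycling cells were deeper, with a median of 14244 UMIs, and on cells thinned to 1000 UMIs 44.7% of them had a Ccl2 UMI. The 10 dissociation stress genes (Fos, Jun and others induced by tissue digestion) summed to 5636 CPM in cycling and 9380 CPM in other macrophages.

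Lipid-associated-type macrophages, which carry Gpnmb, Spp1 and Trem2 and take up lipid debris, parted Ccl12 from the other members. In these 1101 cells Ccl12 was 55.4 CPM, 7.90-fold lower than in the other macrophages (7.35 to 8.51). Ccl2 at 535 CPM and Ccl7 at 272 CPM were 1.22-fold and 1.76-fold lower and not called, so 1 of 3 was called lower where 12.1% of genes were. MHC class II-high macrophages, which carry antigen presentation genes, were lower in Ccl7 and Ccl2 but not in Ccl12. Ccl7 was 181 CPM there, 2.61-fold lower (2.48 to 2.75). Ccl2 was 390.1 CPM and Ccl12 414 CPM, with ratios of 0.591 and 1.19. Of the 3 genes 1 was called lower, where 3.43% of genes were. Gdf15 Cxcr4 macrophages had the lowest Ccl2 of the subsets, 292 CPM (2.28-fold lower, 2.18 to 2.39), and the lowest Ccl7, 169 CPM (2.77-fold lower, 2.62 to 2.95). Their Ccl12 was 222 CPM (1.68-fold lower), so 2 of 3 were called lower, where 3.32% of genes were. As a mean over cells the Ccl2 ratio there was 0.520 and not called.

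The mix of the 3 ligands therefore changed between subsets. For each Ccl2 UMI, resident-type cells had 1.11 Ccl7 UMIs (1.07 to 1.14) and 0.875 Ccl12 UMIs. Lipid-associated-type cells had 0.509 and 0.104, MHC class II-high cells 0.464 and 1.06, Gdf15 Cxcr4 cells 0.577 and 0.759, and cycling cells 0.668 and 0.374. In stroma the number of Ccl7 UMIs per Ccl2 UMI was 0.696 and 0.653 in GFPhi and GFPlo fibroblasts, 0.424 and 0.538 in mesothelial cells and 0.108 and 0.222 in endothelial cells. These ratios compare cell groups with each other, since capture may differ between genes.

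Ccl7 was detected more often in cells with a Ccl2 UMI than in cells without one. Among 7938 GFPhi macrophages thinned to 1000 UMIs, Ccl7 was detected in 33.2% of cells with a Ccl2 UMI and in 8.71% of cells without one. Ccl12 was detected in 28.4% and 11.7% of the same cells. Within resident-type cells the Ccl7 shares were 59.3% and 21.8%. Stroma showed the same direction: the shares were 24.1% and 2.91% in 6800 GFPlo fibroblasts, and 27.2% and 9.17% in 1173 GFPlo mesothelial cells. Across cells the log levels of Ccl2 and Ccl7 had a Pearson r of 0.553 in GFPhi macrophages, 0.466 in GFPlo fibroblasts and 0.474 in GFPlo mesothelial cells, and 0.508, 0.380 and 0.288 on counts thinned to 1000 UMIs, a description of cells that share 1 library and differ in depth. For Ccl2 and Ccl11 in GFPlo fibroblasts r was 0.0345. Of the GFPhi macrophages 16.2% (1319 cells) had UMIs of Ccl2, Ccl7 and Ccl12 at once, and 28.1% had none of these.

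Much of each gene sat in few cells. The top 1% of GFPhi macrophages held 19.7% of their Ccl2, 26.5% of their Ccl7 and 28.1% of their Ccl12 UMIs. In fibroblasts the top 1% of cells held 52.2% (GFPhi) and 51.3% (GFPlo) of Ccl2, and in endothelial cells 57.3% and 78.5%. Mesothelial cells were more even, at 21.0% and 17.6%. The shares of cells with a Ccl2 UMI after thinning were 7.16% and 5.00% in GFPhi and GFPlo fibroblasts, 14.9% and 17.2% in mesothelial cells and 4.82% and 1.83% in endothelial cells, and without thinning 35.5% and 14.4%, 65.1% and 48.2%, and 21.4% and 6.47%. T and NK cells had thinned shares of 6.49% (5 of 77 cells, 2.14 to 14.5%) and 1.43% (0.577 to 2.93%), and the endothelial intervals overlapped these (2.51 to 8.27% and 1.026 to 2.996%), so no difference is read from the endothelial shares. The endothelial CPM comes from few cells with many UMIs, up to 128 in 1 cell.

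In GFPlo stroma the members differed between subsets. Cycling fibroblasts, 296 cells, had the highest Ccl2 of the fibroblast subsets, 333 CPM (2.35-fold over other fibroblasts, 2.23 to 2.48), which was called, and 175 CPM of Ccl7 (1.82-fold; 2.31-fold and called without the top 1% of cells), which was not, where 7.94% of genes were called higher. Comp-type fibroblasts had the lowest, with 95.9 CPM of Ccl2 and 40.03 CPM of Ccl7 (2.77-fold lower, 2.48 to 3.11), and 1 of 2 was called lower where 2.85% of genes were. The Ccl2 ratio of Comp-type cells was 0.581, and 0.351 and called without the top 1% of cells. Cthrc1-type fibroblasts stood between, at 113 and 76.2 CPM. Among mesothelial cells, the lining of the heart surface, epicardial-type cells had more Ccl2 (552.5 CPM, 1.66-fold over the rest, 1.57 to 1.76) than surface-type cells (275 CPM, ratio 0.713). Neither was called, where 2.54% and 2.21% of genes were called higher and 3.72% and 4.38% lower.

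Endocardial cells, the inner lining of the heart chambers, were low in both genes. In 236 GFPlo cells Ccl2 had 6 UMIs (5.68 CPM, 16.3-fold lower than other endothelial cells, 7.40 to 44.8) and Ccl7 had 3 UMIs (2.84 CPM, ratio 0.142, 0.0286 to 0.434). Both of 2 were called lower, where 12.7% of genes were. The Ccl7 ratio was 0.592 and not called when cells had to hold at least 10 times the markers of any other class. Lymphatic endothelial cells were at 82.0 CPM of Ccl2 and capillary cells at 84.7 CPM. The 338 endothelial cells of no subset had the highest levels, 119 CPM of Ccl2 (2.68-fold, 2.12 to 3.40) and 36.3 CPM of Ccl7 (8.37-fold, 4.43 to 17.2), both called where 1.61% of genes were called higher. Their top 1% of cells held 87.0% of the Ccl2 and 75.0% of the Ccl7 UMIs.

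Ccl11 was a rare transcript of few fibroblasts. In GFPlo its 332 UMIs lay in 103 cells, the 10 highest of which held 38.3%, and 21 cells had at least 5 UMIs. Pi16-type fibroblasts had 168 of these UMIs (18.6 CPM, against 2.45 CPM in other fibroblasts, 7.59-fold, 6.03 to 9.56), in 46 of 1170 cells (3.93%, or 1.11% after thinning). Of the 3 members tested there 1 was called higher, where 3.58% of genes were, and Ccl2 and Ccl7 were 1.12-fold and 1.30-fold higher. Without the top 1% of cells, which held 70.2% of these Ccl11 UMIs, Ccl11 stayed under 10 CPM and had no call. Cthrc1-type fibroblasts had 9 Ccl11 UMIs in 1105 cells. The 95 mural cells had 21 UMIs in 5 cells (38.0 CPM, 23.5 to 58.1), and fibroblasts were 8.21-fold lower (5.01 to 12.8), where 14.1% of genes were called lower. The fibroblast markers summed to 683 CPM in mural cells and 5036 CPM in GFPlo fibroblasts, and the part of this in the mural Ccl11 level was not tested. In 1175 GFPlo mesothelial cells Ccl11 had 0 UMIs, which allows up to 0.170 CPM.

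**Figure D4:**
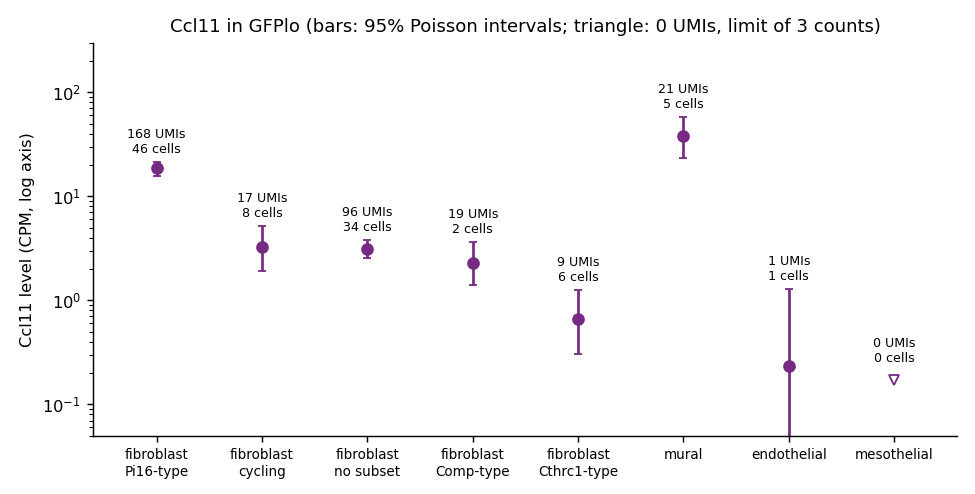
Level of Ccl11 (CPM) in fibroblast subsets and other cell classes of the GFPlo library, with 95% intervals of counting error. Mural cells (38.0 CPM) and Pi16-type fibroblasts (18.6 CPM) stand above the other groups.

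Outside macrophages the low level of Ccl12 in GFPhi ran with C1qa, C1qb and C1qc, complement genes that mark macrophages. C1q genes are also among the macrophage markers of the gate, which leaves out stromal cells with many UMIs of these markers. The C1q ratios are therefore limited by the gate, and what part of each level is macrophage RNA was not tested. Relative to macrophages, the median of the C1qa, C1qb and C1qc ratios was 1.19% in GFPhi fibroblasts, 1.14% in mesothelial cells and 1.71% in endothelial cells. Ccl12 was at 4.13, 4.78 and 4.33 CPM there, which is 0.967, 1.17 and 0.709 times the level at the C1q ratio. Ccl2 in the same classes was 29.2, 45.6 and 12.7 times that level and Ccl7 29.2, 27.7 and 1.98 times. In GFPhi T and NK cells Ccl2 was 1.25 times, Ccl7 2.01 times and Ccl12 0.545 times the level at their C1q ratio, on 8, 9 and 2 UMIs. In GFPlo, with few macrophages, Ccl12 had 4 UMIs in fibroblasts and 0 in mesothelial and endothelial cells.

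**Figure D5:**
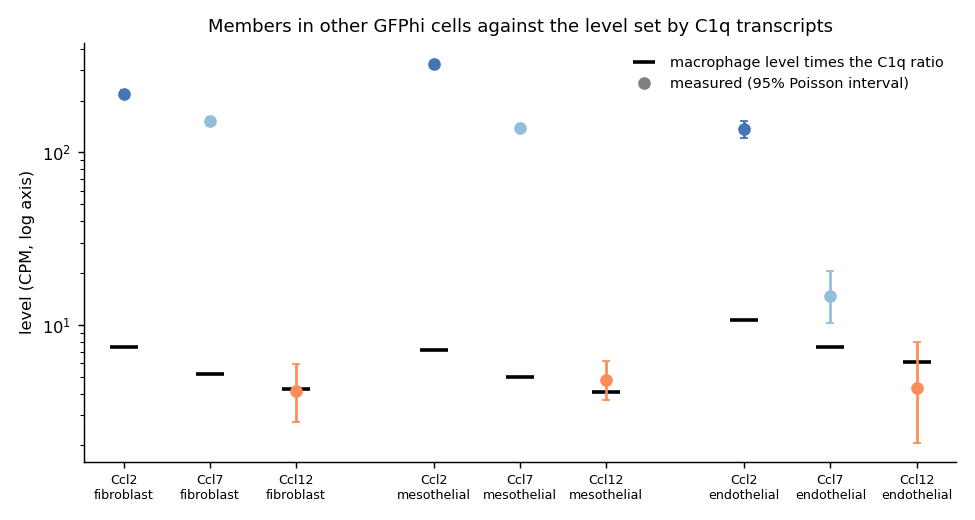
Level (CPM, log axis) of Ccl2, Ccl7 and Ccl12 in GFPhi non-macrophage classes, with intervals of counting error. A dash marks the level that the C1q ratio to macrophages, which the gate limits, would give. Ccl12 is at 4.13 and 4.78 CPM in fibroblasts and mesothelial cells, where the C1q ratio would give 4.27 and 4.08 CPM. Ccl2 is at 218 and 326 CPM there, where it would give 7.48 and 7.15 CPM.

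Promoter sequence was at hand for Ccl12, and for Ccl8, which shared the resident-type pattern. The 250 bases before each start are from RefSeq (GRCm38.p6, plus strand), shown because both genes are high in resident-type macrophages. In lipid-associated-type cells both were lower than in the other macrophages, with ratios of 0.127 for Ccl12 and 0.198 for Ccl8. In MHC class II-high cells they parted, with ratios of 1.19 for Ccl12 and 0.179 for Ccl8. Capitals mark TATAAA and the PU.1 core GAGGAA (its reverse complement where the match is on the minus strand).
Ccl12, chr11:82101595-82101844: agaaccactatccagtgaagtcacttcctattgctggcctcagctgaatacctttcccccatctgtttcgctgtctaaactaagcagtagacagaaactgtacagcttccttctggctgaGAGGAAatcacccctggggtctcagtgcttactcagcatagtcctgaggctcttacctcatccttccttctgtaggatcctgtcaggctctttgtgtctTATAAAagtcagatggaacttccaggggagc
Ccl8, chr11:82114935-82115184: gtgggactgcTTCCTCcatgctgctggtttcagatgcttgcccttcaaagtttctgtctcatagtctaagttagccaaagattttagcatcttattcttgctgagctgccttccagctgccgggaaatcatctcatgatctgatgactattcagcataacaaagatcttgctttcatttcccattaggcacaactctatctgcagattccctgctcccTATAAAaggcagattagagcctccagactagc
TATAAA begins 31 and 32 bases before the start in Ccl12 and Ccl8, and it occurs on either strand in 12.4% of 32851 promoter windows of the same length. GAGGAA lies 130 bases before the start of Ccl12 on the plus strand and 240 bases before that of Ccl8 on the minus strand, and 23.3% of windows hold it. TGANTCA (AP-1, 6.75% of windows) and TTGCNNAA (C/EBP, 9.56%) were not found in either window on either strand. A match is a match of letters and no evidence of binding.

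The genes with the most similar pattern were sought over 33 groups of at least 50 cells, by Pearson r of log2(CPM + 10) over 6979 genes. For Ccl12 these were Ptpro (0.983), Fcrls (0.978), Aif1 (0.974), Aoah (0.971) and Ms4a6c (0.966). For Ccl2 they were Lgals3bp (0.910), Ccl7 (0.876), Mcub (0.848), Ifi202b (0.843) and Ifi204 (0.824), and for Ccl7 Rab7b (0.878), Ccl2, Ifi204 (0.867), Ifi202b (0.865) and Ifi211 (0.848). For Ccl11 they were Rasl12 (0.834), Pla1a (0.832), Tbx2 (0.831), Dgkb (0.824) and Casq2 (0.816). Among these groups Ccl11 passed 10 CPM only in GFPlo mural cells (38.0 CPM, 21 UMIs in 5 cells) and GFPlo Pi16-type fibroblasts (18.6 CPM). Its r values therefore rest mainly on these groups. Ccl12 had r of 0.585 with Ccl2 and 0.647 with Ccl7, and Ccl11 had 0.0987 with Ccl2. The groups share 2 libraries, so r describes these groups only.

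Receptors and scavengers of these ligands were low and unevenly spread. Ccr2, the receptor of Ccl2, Ccl7 and Ccl12, was 63.9 CPM in GFPhi and 276 CPM in GFPlo macrophages, 264 CPM in MHC class II-high and 39.3 CPM in resident-type GFPhi macrophages. Ccr1, another CC chemokine receptor, was 101 CPM in resident-type cells. The scavenger Ackr2, which degrades inflammatory CC chemokines, was 52.8 and 35.7 CPM in GFPhi and GFPlo endothelial cells and 126 CPM in GFPlo lymphatic cells. Of 2 genes of the 6-gene list tested between macrophages of the libraries, 0 were called higher and 2 lower, with 7.19% of genes called lower and a median ratio of 0.329 against 0.847 over all genes tested.

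The NF-kappaB-inducible list did not follow the ligands in resident-type macrophages. Of its 8 genes tested there 1 was called higher and 3 lower, where 9.69% and 3.65% of genes were. Their median ratio was 0.625 against 1.20 over all genes tested. The list summed to 3270 CPM in resident-type cells and 5886 CPM in other macrophages. In MHC class II-high cells 1 of 8 was called higher (1.69% of genes were) and 0 lower, and in lipid-associated-type cells 0 higher and 4 lower, where 12.1% of genes were called lower. Between GFPhi and GFPlo fibroblasts, and between mesothelial cells, 0 of 8 genes were called in either direction. Of all genes tested, 0.774% were called higher and 0.459% lower in GFPhi fibroblasts, and 0.918% and 1.32% in mesothelial cells. The dissociation stress list summed to 8137 CPM in resident-type cells and 9061 CPM in the others, 11008 and 8679 CPM for MHC class II-high, 12104 and 8603 CPM for Gdf15 Cxcr4 and 5926 and 9784 CPM for lipid-associated-type cells, and its part in the chemokine levels was not tested. Of the type 2 genes, Il33 was 124 and 157 CPM in GFPhi and GFPlo mesothelial cells and 51.7 and 45.4 CPM in fibroblasts, and 1 of 3 list genes tested, Il4ra, was called higher in resident-type macrophages, where 9.69% of genes were.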

How the data were processed

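The measurements are droplet single-cell RNA-seq of 2 sorted fractions, 1 library each. The deposited matrices hold UMI counts per gene and cell barcode, made by the authors; per the labels' protocols the kit was a SeekOne 3' kit, while the description field names 10x Genomics. The build is mm10, per the submitters' processing notes; for the aligner, counter and cell calling, the sources used here name none. The counts were used as deposited.

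Barcodes under 300 genes or 500 UMIs, or with over 20% of UMIs from mt- genes, were left out. A cell entered the class with most marker UMIs when it had at least 5, from at least 3 markers, and at least 3 times those of any other class (11 lists). Dcn was dropped from the fibroblast list after class sizes and marker levels were seen, because 99.9% of GFPlo mesothelial cells carry it; with Dcn kept, 45 and 71 mesothelial cells remain. Subsets needed a list score of at least 1.5 times the class mean and 1.5 times the next list, from at least 2 markers. Doublets were not called. Cells that missed this 3-fold margin entered no class, and gated cells can carry markers of another class.

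UMIs were summed per library and cell group, with exact Poisson intervals for CPM, exact conditional intervals for ratios and Clopper-Pearson intervals for shares, at 95% and for counting error only; a count of 0 is given the limit of 3 counts. Shares were also computed on cells thinned to 1000 UMIs, leaving out shallower cells: 553 of the GFPhi and 861 of the GFPlo cells. On simulated counts of 32287 genes with 200 changed 3-fold between whole libraries, the calls recovered 99.5% of these and called 0 of 8318 unchanged genes. These counts carried counting error alone, without spread between cells or libraries, so they give no error rate for the real calls. Analyses used Python 3.11.15, numpy 2.4.6, scipy 1.17.1 and pandas 2.3.3; gene positions are from GENCODE on mm10, and RefSeq promoters matched Ccl12 and Ccl8.

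The 4 members were always named; other genes came from lists of receptors, NF-kappaB-inducible, type 2 and dissociation stress genes, and the 5 genes most like each member. One gene of the receptor list is not reported here. The members and lists were chosen with earlier results of these data known.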

Additional observations from a re-analysis of the deposited data

Results flagged for a closer look

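The ratio of GFPhi to GFPlo cells differed in direction between classes, with 1 library on each side. For Ccl2 it was 1.18 in macrophages, 1.39 in fibroblasts and 1.91 in endothelial cells, against 0.879 in mesothelial cells. For Ccl7 it was 2.29 in macrophages and 1.49 in fibroblasts, against 0.693 in mesothelial cells. The difference between the classes was not tested.

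A signal lay in the 2295 GFPlo cells that entered no class: Ccl2 was at 472 CPM and Ccl7 at 194 CPM there, with 24.2% of the Ccl2 and 18.1% of the Ccl7 UMIs of the library. Of these cells 1023 carried markers of more than 1 class and held 22.0% of the Ccl2 UMIs.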

How the results depend on the processing

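The 12 settings were run 1 at a time. The count of members called higher stayed at 3 for whole libraries and at 2 for cycling macrophages under each setting that gives it. For resident-type macrophages it stayed at 3 but for 4 with no filter on genes, where Ccl11 was added on 5 UMIs (3.62, 1.01 to 10.8). With no filter, Ccl11 was also called lower over whole libraries (0.138). No paired analysis was possible because each group has 1 library. Counts of members called higher moved as follows. With means over cells, the macrophage class gave 1 in place of 2, and cycling fibroblasts 2 in place of 1. With no filter on genes, the fibroblast, mesothelial and endothelial classes each gave 1 in place of 0. With Dcn kept in the fibroblast list, the mesothelial class, the endothelial class and cycling mesothelial cells each gave 1 in place of 0. The endothelial class also gave 1 with at least 10 marker UMIs and with at least 10 times the markers of any other class. Without the top 1% of cells, the endothelial class gave 2, Pi16-type fibroblasts 0 in place of 1, cycling fibroblasts 2 and cycling endothelial cells 1 in place of 0. With genes at 50 CPM, Pi16-type fibroblasts gave 0.

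Lower calls also moved. Ccl2 gained one in Comp-type fibroblasts without the top 1% of cells (0.351) and with Dcn kept (0.410), and in Cthrc1-type fibroblasts with Dcn kept (0.487). Ccl2 in Gdf15 Cxcr4 macrophages lost it as a mean over cells (0.520). Ccl7 lost it in endocardial cells under 4 settings and in cycling endothelial cells under 3. With no filter, Ccl11 gained one in Comp-type and Cthrc1-type fibroblasts. In 5 cases a ratio without a call became called in the opposite direction. Ccl7 in mesothelial cells between the libraries went from 0.693 to 2.37, and in cycling mesothelial cells from 0.622 to 3.47, both with Dcn kept (45 and 71 mesothelial cells). Without the top 1% of cells, Ccl7 in endothelial cells between the libraries went from 0.933 to 2.41 and Ccl2 in cycling endothelial cells from 0.647 to 3.20. Ccl2 in lymphatic cells went from 1.18 to 0.431 with at least 10 marker UMIs. Of 689 ratios compared, 660 kept their call or stayed without one, 14 became called in the same direction and 10 lost the call. Direction was not compared where neither setting gave a call. The causes were not tested. Few UMIs stood behind Ccl11 (40 in GFPhi and 332 in GFPlo) and behind Ccl7 in endothelial cells (34 and 68).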
